A study of Mus musculus with 2 samples.

Results

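The shortest stretches of the autosomes that lay between neighbouring chromatin boundaries of mouse olfactory sensory neurons were examined. The members were the autosomal intervals, measured from the midpoint of a boundary to the midpoint of the next, that were 120 kb long or shorter, and there were 310 of 6975 (4.44%). They were chosen by their length alone, so their length is no finding. Boundaries came from in situ Hi-C, a method that joins and sequences DNA ends lying close together in fixed nuclei. The neurons were sorted by fluorescence from the olfactory epithelium of adult MOR28-GFP mice of strain 129P2/OlaHsd and mixed sex, and express the odorant receptor gene Olfr1507, also called MOR28. There was 1 group of 2 biological replicates of 170000 and 220000 cells, fixed with 1% formaldehyde, cut with DpnII, and listed with no treatment. The authors combined both replicates before calling boundaries, so no value has a replicate error, the depth behind a boundary is unknown, and no test between groups of samples was possible. Expression was not measured, so the cell type was not checked against its markers.

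Boundaries part the genome into domains within which DNA contacts itself more often than it contacts the flanking DNA. In mammals many boundaries lie at sites bound by CTCF, a DNA-binding protein that stops the cohesin ring, and many others lie at active gene starts. Cohesin loops are held mainly where the CTCF motifs at the 2 ends of a loop point toward each other, an arrangement called convergent. Domains of mammalian cells usually hold several genes together with the enhancers that act on them.

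In 11 of the 310 short intervals (3.55%) the CTCF core motif had matches in the convergent arrangement. A match on the forward strand then lay at the left boundary and one on the reverse strand at the right. The share was 2.16% in all autosomal intervals and 3.24% in the class above 120 and up to 200 kb. Matches in the opposite arrangement, pointing out of the interval, were found in 13 short intervals (4.19%). Binding of CTCF was not measured. A match or a transcription start site (TSS) was counted at an end when it lay in the boundary's 5000 bp widened by 10 kb on each side. The 3 convergent intervals with the highest strength at their weaker end are shown, each with the match nearest to the boundary midpoint, because they show the arrangement at both ends of a small domain. The 12 bases of the match are in capitals, with 40 bases in all from the GRCm38 genome, read 5′ to 3′ on the strand of the motif. Strengths are scores that the authors deposited with the boundaries, on a scale that the list does not explain. The first interval is the 95 kb of Krt8 and Krt18, keratins of simple epithelia, with strengths of 0.523 at the left and 1.41 at the right end. The second is 95 kb with Zfhx2, Thtpa and Ap1g2 (0.444 and 0.614), and the third 115 kb with Prpf40b, Fam186b, Fmnl3 and Tmbim6 (0.440 and 0.416). Relative to the left and right midpoints, the matches lay at -0.325 and -6.67 kb, 6.93 and -10.6 kb, and -9.94 and 9.26 kb. They do not mark the exact ends of the intervals.
Krt8 and Krt18, left end, chr15:101977155-101977194, forward: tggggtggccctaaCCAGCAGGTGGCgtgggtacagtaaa
Krt8 and Krt18, right end, chr15:102065808-102065847, reverse: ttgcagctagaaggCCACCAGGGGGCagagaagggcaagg
Zfhx2 to Ap1g2, left end, chr14:55024406-55024445, forward: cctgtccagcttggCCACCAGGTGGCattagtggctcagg
Zfhx2 to Ap1g2, right end, chr14:55101853-55101892, reverse: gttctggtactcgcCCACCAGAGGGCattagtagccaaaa
Prpf40b to Tmbim6, left end, chr15:99282541-99282580, forward: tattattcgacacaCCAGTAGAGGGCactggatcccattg
Prpf40b to Tmbim6, right end, chr15:99416737-99416776, reverse: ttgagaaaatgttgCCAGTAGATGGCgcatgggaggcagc

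The short intervals ran from 60 kb, the smallest autosomal distance, to 120 kb with a median of 110 kb, against a median of 275 kb in the 6665 other autosomal intervals. Together they covered 32.6 Mb, or 1.37% of the sequence between autosomal boundaries. At the threshold there were 65 intervals of exactly 120 kb, just inside, and 94 that were longer by a single step of 5 kb, just outside. Those inside held 16.8 protein-coding TSSs per Mb and those outside 18.9, and the median strength of the weaker end was 0.293 and 0.307. The counts had no gap at the limit. Chromosome 11 had the most short intervals (26, or 6.24% of its intervals), and chromosomes 13 and 16 had the fewest, 8 each (2.43% and 3.21%).

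**Figure D1:**
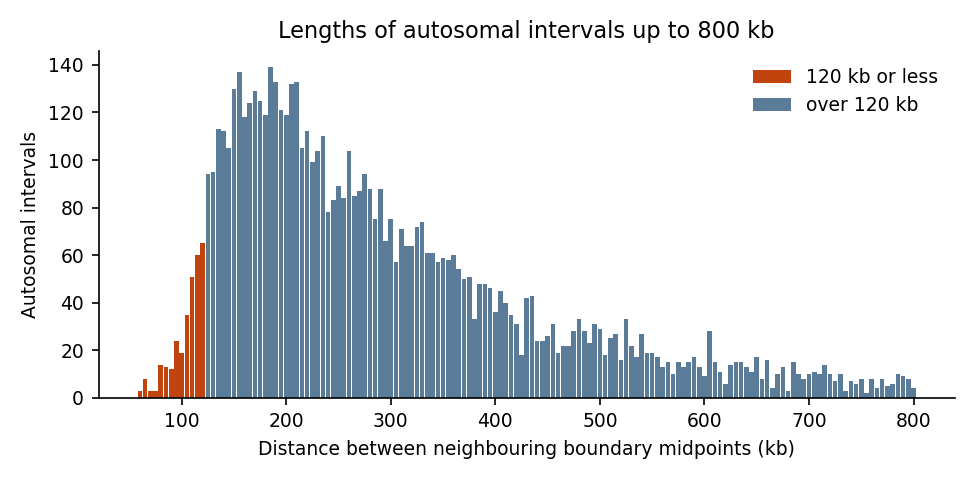
Number of autosomal intervals (y axis) at each distance between neighbouring boundary midpoints (x axis, kb, in steps of 5 kb), with the 310 short intervals in red and longer ones in blue. The 391 intervals over 800 kb are not drawn, and there are 3 intervals at 60 kb, 65 at 120 kb and 94 in the next step, with small falls on the way (24 at 95 kb and 19 at 100 kb).

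Short intervals were dense in protein-coding genes. They held 765 coding TSSs, or 23.5 per Mb (95% Poisson interval 21.8 to 25.2), against 19842 in the other autosomal intervals, or 8.42 per Mb (8.31 to 8.54). The ratio was 2.79 (95% exact interval 2.59 to 2.99, counting error only, and neighbouring genes are not independent). It was above 1 on all 19 autosomes, from 1.503 on chromosome 9 to 5.17 on chromosome 15. Short intervals on chromosome 17 had the highest density, 39.0 per Mb, and those on chromosome 6 the lowest, 11.4 per Mb.

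The density fell with each step in interval length. It was 23.5 coding TSSs per Mb at 120 kb or less, 15.5 above that and up to 200 kb, 13.0 up to 300 kb, 8.25 up to 500 kb and 3.76 over 500 kb. The Poisson intervals of neighbouring classes did not overlap. Against the class of up to 200 kb alone, the closest in length, the ratio was 1.51 (1.40 to 1.63). Base composition moved with gene density. GC content was 45.5% in short intervals and 41.9% in the others, and repeat-masked bases made up 29.1% and 33.4%. Their part in the difference was not tested.

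**Figure D2:**
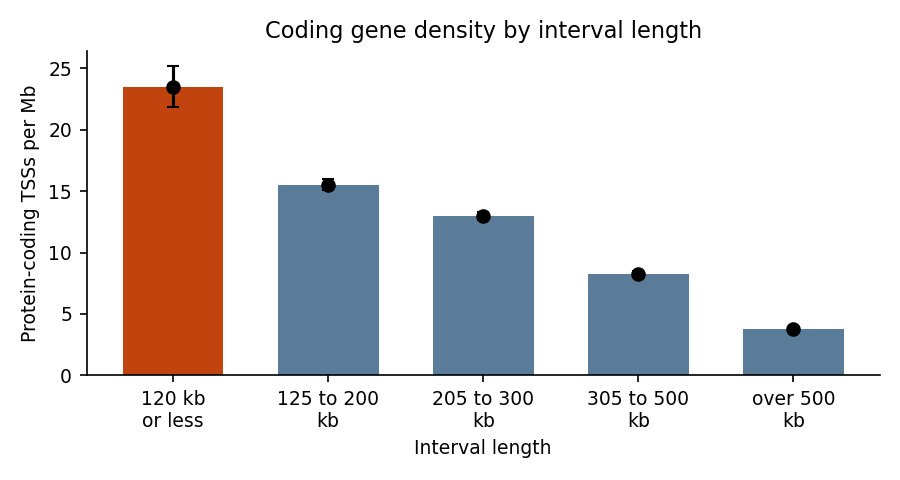
Protein-coding TSSs per Mb (y axis) in autosomal intervals grouped by length (x axis), with short intervals in red and the other classes in blue, and error bars for the 95% Poisson interval. The bars step down from 23.5 per Mb at 120 kb or less to 3.76 per Mb over 500 kb.

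The number of coding genes in an interval changed far less than the density did. The median was 2 genes per interval in short intervals (quartiles 1 and 3) and 2 in the others (1 and 4), with means of 2.47 and 2.98. At least 1 coding TSS lay in 267 short intervals (86.1%, 95% Wilson interval 81.8 to 89.5), against 77.7% of the others (76.7 to 78.7) and 78.1% of all 6975. A short interval with a single gene was the most frequent kind (87), followed by those with 3 genes (58), 2 genes (55) and none (43). There were 50 with 5 or more genes (16.1%), against 20.4% of the others, and the largest count was 11 in short intervals and 89 in the others. Genes that started in short intervals were a median of 15.7 kb long (quartiles 6.55 and 33.8), against 17.8 kb (6.67 and 46.4) elsewhere. Of the 765 genes, 619 ended inside the same interval (80.9%), against 87.3% in the others. This share rose with interval length, from 82.3% in the class above 120 and up to 200 kb to 92.8% over 500 kb.

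There were 3 intervals of 60 kb and 8 of 65 kb. The 3 of 60 kb and the 2 of 65 kb with the highest strength at the weaker end are described, and each held 1 or 2 coding genes, with a coding TSS at 1 end. The 6 other intervals of 65 kb held 2 to 9 coding genes, and 2 of them, with 8 and 9 genes, had a coding TSS at both ends. An interval of 60 kb on chromosome 4 (31962501 to 32022500) held Map3k7, the gene of the kinase TAK1 of inflammatory signalling. Its TSS lay 1.60 kb from the left boundary, whose strength was 1.28, and the right end had a strength of 0.281. A second of 60 kb, on chromosome 7 (99092501 to 99152500), held the start of Uvrag, an autophagy gene, 11.4 kb from the right boundary (strengths 0.241 and 1.07). The last of 60 kb, on chromosome 17 (72777501 to 72837500), held Ypel5, 1.05 kb from the right boundary (1.82 and 0.233). The other two described were 65 kb long. That on chromosome 7 (65642501 to 65707500) held Tarsl2, a threonyl-tRNA synthetase gene, and Tm2d3 (strengths 1.17 and 0.349). That on chromosome 5 (136197501 to 136262500) held Prkrip1 and the signalling adaptor gene Sh2b2 (0.325 and 0.803). In these 5 intervals 1 end was strong and the other weak in the authors' classes.

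The short intervals with the most coding TSSs lay in the major histocompatibility region of chromosome 17 and near the end of chromosome 7. By density the highest value, 138 per Mb, was in 65 kb of chromosome 15 (76657501 to 76722500) with 9 coding TSSs. Of the 3 with 11 coding TSSs each, the first spanned 105 kb of chromosome 17 (35817501 to 35922500). It ran from Ier3 and Flot1, a flotillin gene, past Tubb5, Mdc1, Nrm, Ppp1r18, Dhx16, 2310061I04Rik and Atat1 to Mrps18b and Ppp1r10 at the right end. Tubb5 encodes a tubulin and Mdc1 a protein of the DNA damage response. The second, 115 kb of the same chromosome (34552501 to 34667500), began with the receptor gene Notch4 and held Gpsm3, the homeobox gene Pbx2, Ager, Rnf5, Agpat1, Egfl8, Ppt2, Prrt1, Fkbpl and Atf6b. The third, 90 kb of chromosome 7 (141387501 to 141477500), held Taldo1, a gene of the pentose phosphate pathway, Gatd1, Cend1, Slc25a22, Pidd1, Rplp2, Pnpla2, Cracr2b, Cd151, Polr2l and Tspan4. Rplp2 is a ribosomal and Polr2l an RNA polymerase subunit gene. All 3 had a coding TSS at both ends and a strong left and a weak right boundary. The strengths were 0.868 and 0.366, 1.33 and 0.362, and 0.698 and 0.216.

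Coding promoters lay at both ends of short intervals more often than in the rest of the autosomes. Both ends had a coding TSS in 77 of 310 short intervals (24.8%, Wilson interval 20.4 to 29.9), against 822 of 6665 others (12.3%, 11.6 to 13.1) and 12.9% of all. Among the 19 short intervals with a strong boundary at both ends the order was turned, with 1 (5.26%, 0.935 to 24.6). The 12.3% it is set against covers other intervals of any boundary class and lies within that Wilson interval. When intervals were rebuilt from strong boundaries alone, the same 19 were short. The others then had 14.5%, also within the Wilson interval. Of all 310 short intervals, a single end had a coding TSS in 132 (42.6%, 37.2 to 48.1), against 33.1% of the others and 33.5% of all. Neither end had one in 101 (32.6%, 27.6 to 37.98), against 54.6% of the others. The share with both ends was higher in short intervals on 16 of 19 autosomes, and no short interval of chromosome 1 (20 intervals) or chromosome 18 (12) had it. In the class above 120 and up to 200 kb it was 17.3% and over 500 kb it was 2.80%. The windows at the ends have the same size whatever the interval length, and the gene density around them differed as given above. Its part in these shares was not tested.

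**Figure D3:**
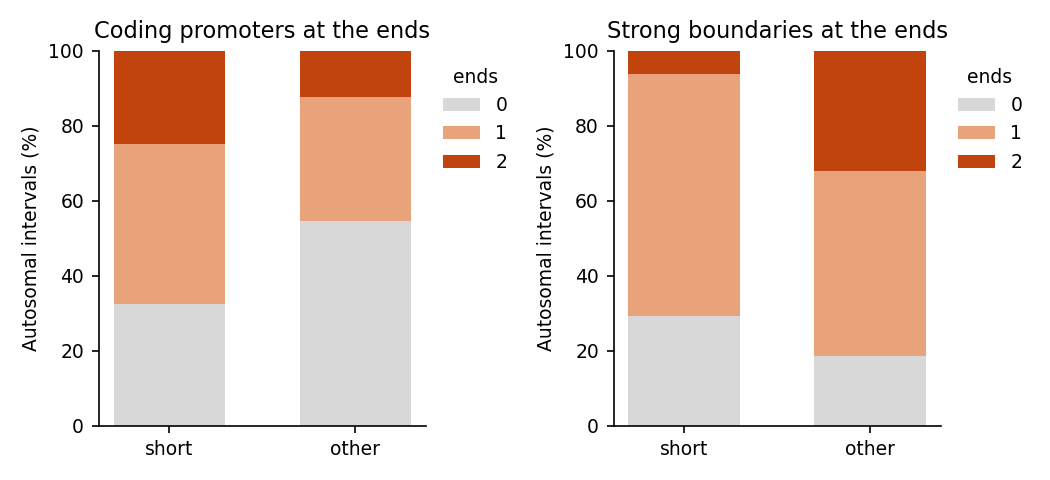
Share of autosomal intervals (y axis, %) by the number of ends with a protein-coding TSS (left) and by the number of strong ends (right), for short intervals and for the others. Short intervals have promoters at both ends in 24.8% against 12.3%, and strong boundaries at both ends in 6.13% against 32.1%.

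TSSs were denser in short intervals in each of the 12 distance bins of 5 kb. Within 5 kb of a midpoint, inside the interval, there were 37.1 coding TSSs per Mb in short intervals and 18.99 in the others. Within 15 kb the densities were 30.5 and 14.3 per Mb (ratio 2.13, 1.88 to 2.41). Between 15 and 60 kb from the midpoint they were 20.6 and 11.2 per Mb (ratio 1.84, 1.67 to 2.02). Both kinds of interval thus had their highest density next to the boundary, and at matched distances the ratio was lower than the 2.79 of whole intervals. Of the 239 coding TSSs that lay inside a short interval within reach of an end, 149 were transcribed into the interval (62.3%, Wilson interval 56.1 to 68.2), against 54.3% of 2496 in the others (52.3 to 56.2).

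**Figure D4:**
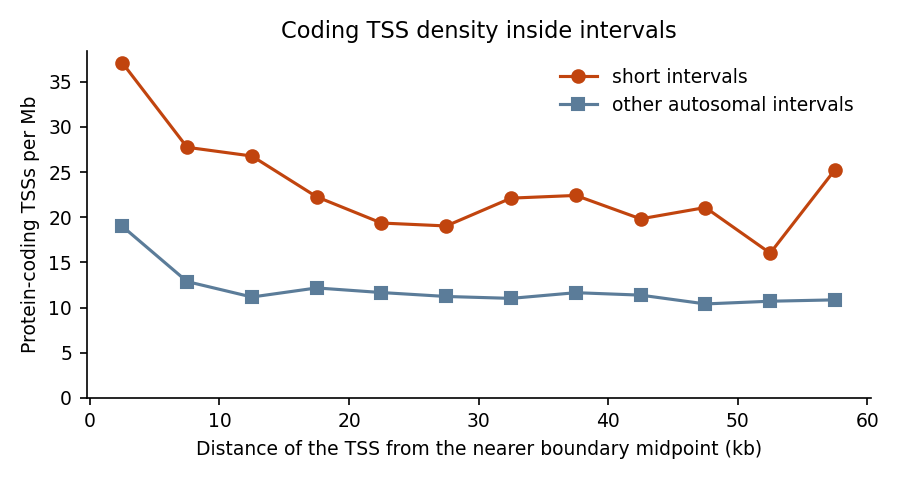
Protein-coding TSSs per Mb (y axis) by distance from the nearer boundary midpoint inside the interval (x axis, kb, bins of 5 kb), for short intervals (red circles) and other autosomal intervals (blue squares). The red line lies above the blue in all bins drawn, at 37.1 against 18.99 per Mb in the first.

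Promoters that started in short intervals were rich in CpG somewhat more often. Over the 250 bases before the TSS, 357 of 765 (46.7%, 43.2 to 50.2) had a GC content over 50% and an observed over expected CpG ratio over 0.6, against 37.9% of 19842 elsewhere (37.2 to 38.5) and 38.2% of all. At an end of a short interval the share was 53.1% (127 of 239, 46.8 to 59.4), and at an end of another interval 48.8% (46.8 to 50.7). The GC box GGGCGG, on either strand, was found in 46.4% of the promoters of short intervals and in 39.5% of those elsewhere. The motif GCCATNTT of YY1, also on either strand, was found in 3.27% and 3.66%. A match describes the letters in this window only.

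Among intervals with a coding promoter at both ends, the 5 with the highest strength at the weaker end paired genes of different kinds. The first, 105 kb of chromosome 14 (32502501 to 32607500), ran from Ercc6, a DNA repair gene, to the homeobox gene Prrxl1 (strengths 1.06 and 0.655). The second, 105 kb of chromosome 11, had Cd300ld3 and Cd300e, of a family of immune receptors, at the left and Slc9a3r1 at the right end (1.58 and 0.471). The third, 95 kb of chromosome 11, ran from Aurkb, a mitotic kinase gene, to Hes7, 9130213A22Rik and Aloxe3 (0.729 and 0.451). The fourth, 80 kb of chromosome 10 (60757501 to 60837500), had Slc29a3, a nucleoside transporter gene, at the left and Unc5b, the gene of a netrin receptor of axon guidance, at the right end (1.63 and 0.446). The fifth, 95 kb of chromosome 14, had Ngdn at the left and Ap1g2 and Jph4 at the right (0.444 and 0.614), and is the second of the convergent intervals printed above.

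The promoters of the chromosome 10 pair are shown as an example of a short interval with a GC-box promoter at each end. The interval from Ngdn to Ap1g2 also had a GC box at each end. They are the 250 bases before the RefSeq start site on GRCm38.p6, read along the gene, with GC boxes (GGGCGG or its complement CCGCCC) in capitals. Both genes are on the reverse strand, so Slc29a3 is transcribed out of the interval to the left and Unc5b into it. The Slc29a3 promoter has 3 GC boxes and 15 CpGs, and the Unc5b promoter 2 GC boxes and 27 CpGs.
Slc29a3, chr10:60752783-60753032, reverse: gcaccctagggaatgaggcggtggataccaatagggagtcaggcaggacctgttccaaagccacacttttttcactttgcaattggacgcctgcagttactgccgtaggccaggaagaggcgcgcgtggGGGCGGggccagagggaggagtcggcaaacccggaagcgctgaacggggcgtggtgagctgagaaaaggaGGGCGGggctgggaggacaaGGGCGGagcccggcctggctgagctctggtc
Unc5b, chr10:60831582-60831831, reverse: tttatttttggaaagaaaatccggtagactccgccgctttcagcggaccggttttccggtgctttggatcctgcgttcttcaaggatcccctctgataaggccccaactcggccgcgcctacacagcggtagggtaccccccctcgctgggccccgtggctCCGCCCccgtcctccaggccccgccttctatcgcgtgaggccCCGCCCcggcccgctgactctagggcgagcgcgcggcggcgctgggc

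In a few short intervals 1 coding gene reached from end to end. A gene body with both its ends inside the windows of the 2 boundaries was found in 7 of 310 (2.26%, Wilson interval 1.10 to 4.59), against 36 of 6665 others (0.540%, 0.390 to 0.747). In the class above 120 and up to 200 kb it was 17 of 1913 (0.889%, 0.556 to 1.42), an interval that overlaps that of the short ones. This count was made after values were seen. The genes were Nrp2, Map3k7, Dennd4c, Cfap57, Foxj3, Unc5b and Ppp6r3. Nrp2, a semaphorin receptor gene that guides olfactory axons, is 115 kb long (chromosome 1, 62703285 to 62818695) in an interval of 115 kb with strengths of 1.38 and 0.484. Map3k7, 59.4 kb long, filled its interval of 60 kb. Unc5b, 69.0 kb long, lay in 80 kb.

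The boundaries at the ends of short intervals were weaker on the whole than other autosomal boundaries. These strengths come from the same contact map as the distances that chose the members, so they are given as a description. The 596 boundaries that flanked a short interval had a median strength of 0.397 (quartiles 0.275 and 0.773), against 0.597 (0.333 and 1.01) for the 6398 others. Of them 232 were strong (38.9%), against 57.6% of the others. Both ends were strong in 19 short intervals (6.13%), against 32.1% of the other intervals and 31.0% of all. A strong and a weak end were found in 200 (64.5%), against 49.3%, and 2 weak ends in 91 (29.4%), against 18.6%. The weaker end had a median strength of 0.283 (quartiles 0.237 and 0.357) in short intervals and 0.366 (0.257 and 0.583) in the others, and it was lower in short intervals on 18 of 19 autosomes. For the stronger end the medians were 0.763 and 0.944.

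Some very strong boundaries lay at short intervals. Of the 100 strongest autosomal boundaries 5 flanked one, against 596 of all 6994 (8.52%). A strength over 1 was found in 15.9% of flanking boundaries and in 25.7% of the others. Among them was the strongest of the list, at 4.26 in the gene of the cold-activated channel Trpm8, which closed a 95 kb interval of chromosome 1 (88212501 to 88307500). That interval held Mroh2a, Hjurp and the start of Trpm8, and its other end, at the starts of Ugt1a2, Dnajb3 and Ugt1a1, had a strength of 0.304. The next strongest of those that flank a short interval, at 2.84, closed a 120 kb interval on chromosome 19 with Osbp, a sterol-binding protein gene, and had Olfr1423 in its window.

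Weak boundaries beside short intervals often lay at promoters. Of the 364 weak ones, 167 had a coding TSS in their window (45.9%, Wilson interval 40.8 to 51.0), against 20.7% of the 2714 other weak autosomal boundaries (19.3 to 22.3) and 23.7% of all weak ones. Of the 232 strong ones 101 had one (43.5%, 37.3 to 49.97), against 33.7% of the other strong ones (32.2 to 35.3). Counted together, 45.0% of the flanking boundaries had a coding TSS (41.0 to 48.98), against 28.2% of the others (27.1 to 29.3) and 29.7% of all. In the short intervals weak and strong ends thus had TSSs at shares whose intervals overlap, while among other boundaries the strong ones had the higher share. Gene density around the windows differed too, and its part was not tested.

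CTCF motif matches were less marked than promoters. A match lay in the window of 174 of 596 flanking boundaries (29.2%, 25.7 to 33.0), against 24.2% of the others (23.2 to 25.3) and 24.6% of all. Both ends had a match in 35 short intervals (11.3%, 8.23 to 15.3), against 7.44% of the others (6.84 to 8.10) and 7.61% of all. In the class above 120 and up to 200 kb the share was 10.7%, within the interval of the short ones. Of the 35, 11 had the convergent arrangement and 13 the opposite one, with motifs pointing out of the interval (31.4% and 37.1%), against 28.2% and 35.3% of 496 in the others. The weak flanking boundaries had a match in 26.6% (22.4 to 31.4), against 15.6% of other weak ones (14.3 to 17.0). For strong boundaries the shares were 33.2% (27.4 to 39.5) and 30.5% (29.1 to 32.0), with intervals that overlap.

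Short intervals were followed by another short interval in 24 of 310 cases (7.74%, Wilson interval 5.26 to 11.3), against 286 of 6646 for the others (4.30%, 3.84 to 4.82) and 4.46% of all. Most, 265, stood alone. There were 18 runs of 2 consecutive short intervals and 3 runs of 3, so that 45 short intervals (14.5%) lay in 21 runs. Intervals in runs held 31.7 coding TSSs per Mb (95% Poisson interval 26.8 to 37.3), and single ones held 22.1 (20.4 to 23.9). Both ends had a coding TSS in 21 of the 45 (46.7%, 32.9 to 60.9) and in 56 of the 265 single ones (21.1%, 16.6 to 26.4). Neighbours in a run share a boundary, so their ends are not independent. Of the 24 boundaries between 2 short intervals 18 had a coding TSS (75%, 55.1 to 88.0) and 6 were strong (25%). Among all boundaries that flank a short interval 45.0% had a coding TSS and 38.9% were strong. Among all autosomal boundaries the shares were 29.7% and 56.0%.

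Of the 3 longest runs, those on chromosomes 8 and 11 are described. The run on chromosome 8 (94702501 to 95027500) had intervals of 110, 110 and 105 kb and boundary strengths of 0.903, 0.282, 0.662 and 0.345. Its first interval held the chemokine genes Ccl22, Cx3cl1 and Ccl17, its second Coq9, Ciapin1, Polr2c, Dok4 and Ccdc102a, and its last the adhesion receptor genes Adgrg5, Adgrg1 and Adgrg3. The chemokine genes and the adhesion receptor genes thus lay in separate intervals. The run on chromosome 11 (97632501 to 97892500) had intervals of 70, 80 and 110 kb, with strengths of 0.292, 0.201, 0.429 and 0.286. It held Mllt6, Cisd3 and Pcgf2, a Polycomb gene, then Psmb3, Pip4k2b, Cwc25, 1700001P01Rik and Rpl23, then Lasp1, B230217C12Rik and Fbxo47. In the chromosome 11 run all 4 boundaries were weak.

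**Figure D5:**
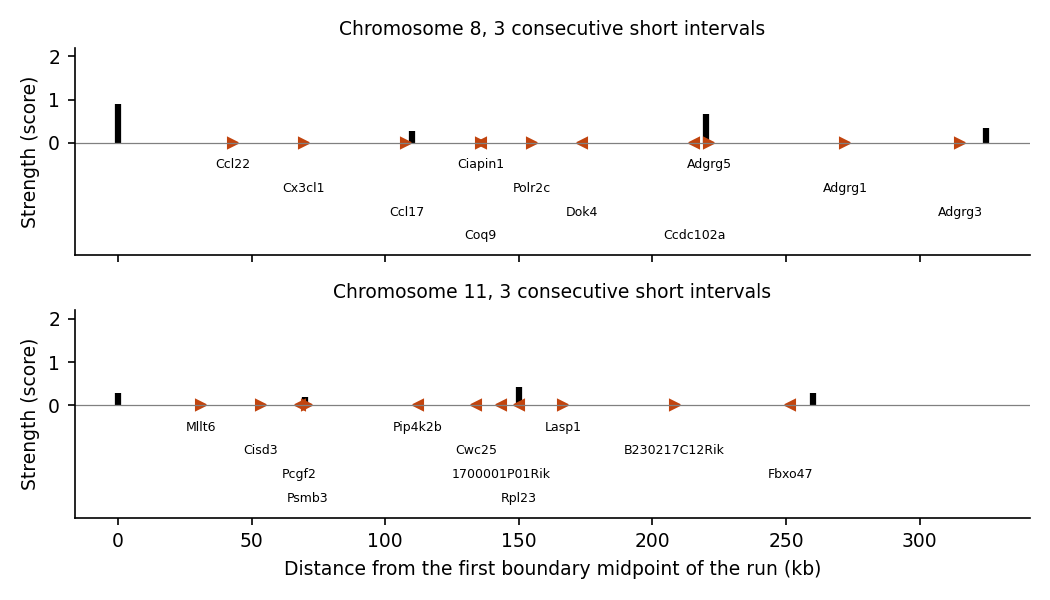
The runs of 3 consecutive short intervals on chromosomes 8 and 11, with black bars for the boundaries (y axis, strength, the authors' score) and red arrowheads for protein-coding TSSs pointing along transcription (x axis, distance from the first boundary midpoint, kb). Inner boundaries range from 0.201 to 0.662 in strength.

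Gene lists showed which classes of coding gene the short intervals held. Short intervals held 765 of 20807 autosomal coding genes (3.68%). Of 2329 genes of clustered families they held 18 (0.773%, Wilson interval 0.489 to 1.22). Of 1127 odorant receptor genes they held 3 (0.266%, 0.0906 to 0.780), Olfr462, Olfr463 and Olfr464, all in 1 interval of 105 kb on chromosome 11 with Mks1 and Epx. None of 326 vomeronasal receptor, 57 protocadherin, 39 Hox, 65 histone, 94 cytochrome P450, 66 defensin, 28 major histocompatibility and 15 trace amine receptor genes lay in one. Of 410 zinc finger genes 7 did (1.71%), among them Zfp319, Zfp444 and Zfp787. Members of a cluster share their neighbourhood, so these genes are not independent.

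Among the clustered families only keratins had a share above that of all coding genes, with 8 of 102 (7.84%, 4.03 to 14.7) in 3 intervals. Genes that share an interval are not independent, so no excess is read from the lower limit. Krt8 and Krt18 shared the convergent interval printed above, Krt222 and Krt24 another, and the keratin-associated genes Krtap31-1, Krtap31-2, Krtap4-16 and Krtap9-1 the last.

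Genes of families grouped here as widely expressed were found in short intervals in 27 of 452 cases (5.97%, 4.14 to 8.55). Expression was not measured, so single members need not be widely expressed. Of 82 cytosolic ribosomal protein genes 8 were (9.76%, 5.03 to 18.1), led by Rpsa, Rps14 and Rps10, ordered here and below by the strength of the weaker end (0.458, 0.383 and 0.336). Of 41 RNA polymerase II and Mediator genes 5 were (12.2%, 5.32 to 25.5), among them Med12l, Polr2c and Polr2j. Of 61 splicing factor genes 4 were (6.56%, 2.58 to 15.7), led by Srsf1, Prpf40b and Lsm3. Of 40 proteasome genes 3 were (7.5%, 2.58 to 19.9), Psmd13, Psma5 and Psmb3. Mitochondrial ribosomal genes (2 of 78, Mrps18b and Mrpl55) and respiratory chain genes (2 of 82, Ndufa6 and Ndufs7) were below the share of all coding genes, with Wilson intervals that include it (0.706 to 8.88 and 0.671 to 8.46). Translation initiation factors (2 of 48, Eif3b and Eif4e1b) and the main aminoacyl-tRNA synthetase genes (1 of 20, Nars, in a list that leaves out Tarsl2) had Wilson intervals that include it too. Of 361 solute carrier genes 15 were (4.16%), led by Slc7a5, Slc25a38 and Slc25a28, and of 55 Rab genes of vesicle traffic 5 were, led by Rab37, Rab20 and Rab5c. Of 72 genes named Ccl, Cxcl or Il 5 were, in 3 intervals, led by Il17c, Cxcl10 and Cxcl9. Cx3cl1, a chemokine gene named above, is outside that list.

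A small number of genes of the olfactory neuron lay in short intervals. Of 24 mature neuron genes 3 did (12.5%, 4.34 to 31.0), namely Cngb1, Nrp2 and Rtp2. Cngb1, the gene of a channel subunit of odorant signalling, lay in 115 kb of chromosome 8 (95222501 to 95337500) with Tepp, Zfp319 and Usb1. Its interval was among the 19 with 2 strong ends (0.792 and 0.752), and the Cngb1 TSS was 30.9 kb from the right end. Rtp2, which helps carry odorant receptors to the cell surface, was the only coding gene of a 95 kb interval of chromosome 16 (23892501 to 23987500) with strengths of 0.351 and 2.27. Of 14 immature neuron genes 2 did, Stmn2, a microtubule regulator, and Gng8, a G protein subunit. Of 23 genes linked to receptor choice 2 did, Rtp2 and Kdm1a, the gene of a histone demethylase (0.329 and 2.30). Potassium channel genes were in short intervals in 4 of 91 cases, led by Kcna5, Kcnu1 and Kcnh4, and of 17 sustentacular and basal cell genes the proliferation gene Mki67 and the neurogenic factor gene Neurog1 were. These lists are small. The Wilson intervals of the mature and immature neuron lists (from 4.34% and from 4.01%) lie just above the 3.68% of all coding genes, and those of the other 3 lists include it. With 3 and 2 genes, and 27 lists counted, no excess is read from these limits. The lists were chosen with earlier results known.

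The 43 short intervals without a coding TSS were of several kinds. Of them 17 overlapped the body of a coding gene, 7 of these wholly inside 1, and 26 overlapped none. The 3 with the highest strength at the weaker end were 120 kb inside Auts2 (chromosome 5, 132112501 to 132232500, strengths 0.633 and 0.572), 95 kb on chromosome 8 (84272501 to 84367500, 0.557 and 0.852) with the start of Ccdc130 in the window of its left end, and 120 kb inside Frmd4b (chromosome 6, 97412501 to 97532500, 0.508 and 0.727). Auts2 is a long gene of brain development. GC content had a median of 40.9% in these intervals and 46.4% in those with a coding TSS, and repeat-masked sequence 33.1% and 27.8%. A CTCF match lay at 1 or both ends in 23.3% of them and in 51.3% of those with a coding TSS. The weaker end had a median strength of 0.242 without and 0.294 with a coding TSS, and the stronger end 0.479 and 0.792.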

How the data were processed

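In situ Hi-C was done on 2 replicates of sorted neurons, and the authors combined them and called boundaries on GRCm38, per the labels' series design text. The deposited list gives 5000 bp boundaries, a class and a strength, which is a score with no stated scale. Checked on the list, scores start at 0.200 and the class turns strong at 0.5. No boundary caller, window, aligner or read filter is stated in the labels, and the depth is unknown.

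Intervals ran between midpoints. Genes came from GENCODE M21 (20807 autosomal coding genes, TSS at the 5′ end of the gene model), sequence from GRCm38.p6, promoters printed from RefSeq. Of 764 coding symbols in short intervals, 583 are in the RefSeq promoter table. CTCF core motif matches (12728) were searched on both strands. The reference is not of the strain of the mice. Repeat-masked bases are the lower-case bases of the RefSeq sequence.

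Shares have 95% Wilson intervals, densities Poisson intervals, and ratios exact conditional intervals, and these cover counting error only. Neighbouring intervals and genes are not independent, and no p-value was computed. Members and gene lists were chosen with earlier results of these data known. Named genes followed a rule: the 5 shortest intervals, the 3 with most TSSs, the longest runs, the top 5 with promoters at both ends, the top 3 without a TSS and up to 3 genes per list. Where a gene outside it is named, it was chosen after its values were seen. Counting was tested on simulated data. Python 3.11.15, numpy 2.4.6, pandas 2.3.3, scipy 1.17.1 and matplotlib 3.10.9 were used. The alternatives covered the length limit, the boundary class, the genes, the windows and the chromosomes. The genes of 1 of the longest runs are not reported here.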

Additional observations from a re-analysis of the deposited data

How the results depend on the processing

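The gene density ratio stayed above 1 under its 10 alternatives. It was 2.79 as reported, 3.28 with a limit of 100 kb (99 intervals), 2.30 with 150 kb (959 intervals) and 1.90 with all annotated genes. Against intervals above 120 and up to 200 kb only it was 1.51. For the 19 short intervals with a strong boundary at both ends it was 1.99, against other intervals of any boundary class. Rebuilding intervals from strong boundaries alone left the same 19 short intervals and gave 1.94. Only the intervals they were compared with differed. The share with a coding promoter at both ends was 24.8%. It was 32.3% with a limit of 100 kb, 41.0% with all annotated genes, 44.2% with the boundary widened by 20 kb, 5.16% with the boundary interval alone and 10.6% with TSSs inside the interval only, each above the other intervals. With a strong boundary at both ends, or rebuilt from strong boundaries, it was 5.26% (1 of 19, interval 0.935 to 24.6), below the others at 12.3% and 14.5%. The 12.3% covers other intervals of any boundary class, and the Wilson interval of the 5.26% includes both values. The 19 intervals set the width of that interval, and the cause was not tested. The share with a gene start was 86.1%, and 81.2% at 150 kb. It turned below the others with all annotated genes (94.2% against 96.6%) and from strong boundaries (84.2% against 93.9%). The Wilson interval of the 84.2% (62.4 to 94.5) includes the 93.9%. Set against other intervals of any boundary class, at 77.7%, the same 19 intervals lay above. The share with CTCF matches at both ends was 21.6% with the boundary widened by 20 kb, and the share followed by a short interval was 3.03% at 100 kb and 20.02% at 150 kb, where the other intervals had 1.40% and 12.8%. Of 37 alternative values, 17 stayed within the interval or quartiles of the reported value, or within 1.5 times it for a count. Measured between facing edges, 404 intervals were short, against 310. No paired analysis was possible because the replicates were combined in 1 list, and for the same reason no replicate could be left out. Depth limits the smallest interval a map can show, and it is unknown here.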

Other observations

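Transfer RNA genes, which are short and transcribed by RNA polymerase III, were also counted. Of 391 autosomal tRNA genes in RefSeq, 40 lay in 12 short intervals (1.23 per Mb), against 345 in 112 other intervals (0.146 per Mb). At least 1 tRNA gene lay in 3.87% of short intervals (95% Wilson interval 2.23 to 6.64) and in 1.68% of the others (1.40 to 2.02). A single interval of 95 kb on chromosome 11 (69037501 to 69132500), with Aurkb, Vamp2 and Per1 among its 8 coding genes, held 17 of the 40. Without it the density was 0.707 per Mb in short intervals. The next richest, with 8, was the 120 kb interval of Osbp on chromosome 19.

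Other classes of gene varied. Long noncoding RNA genes annotated at bidirectional promoters had 0.245 starts per Mb in short intervals (8 genes) and 0.0773 in the others (182 genes). The ratio was 3.18 (95% exact interval 1.35 to 6.39). Genes of small nuclear RNAs had 0.859 and 0.532 per Mb (ratio 1.61, 1.07 to 2.34), and those of small nucleolar RNAs 0.767 and 0.6003 (1.28, 0.824 to 1.89). Long noncoding RNA genes (lincRNA and antisense) had 4.91 starts per Mb in short intervals and 3.36 in the others (ratio 1.46, 95% exact interval 1.24 to 1.71). Genes of microRNAs had 1.41 and 0.846 per Mb (ratio 1.67, 1.22 to 2.23). Processed pseudogenes had 4.51 and 3.77 per Mb (1.20, 1.01 to 1.41), and unprocessed pseudogenes, which arise by duplication, 0.552 and 0.821 (0.672, 0.398 to 1.07).

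On the X chromosome 14 of 372 intervals were 120 kb or shorter (3.76%, 2.25 to 6.22), against 4.44% on the autosomes (3.99 to 4.95). They held 17 coding TSSs, or 11.6 per Mb, against 23.5 per Mb in the autosomal ones. Over all intervals the densities were 5.67 per Mb on the X chromosome and 8.63 on the autosomes.

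A gene model named Gm20388 spans 5 short intervals of chromosome 8 that hold other coding genes, so the count of 14 short intervals inside a coding gene (4.52%, against 3.92% of the others) rests in part on this model.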
